A study of Mus musculus with 9 samples.

Results

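The genes described here mark the T cells that live in mouse epidermis. They are Thy1, Cd3d, Cd3e, Cd3g, Cd247, Ptprc, Il2rb, Itgae, Klrk1 and Lck. The genes were chosen by name, and each was looked up among the probe sets (exon-level units of the array) to which the platform annotation gives a single gene symbol. Of the 10 genes, 8 were measured, by 87 probe sets, out of 14507 genes and 146964 such probe sets in all. Il2rb and Lck had no probe set under that rule and are not analysed here.

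Tail epidermis of adult female wild type mice (strain background C57BL6/CBA), whose age and sex were matched, was taken apart manually into 3 compartments. The groups are the sebaceous gland (SG), the oil-producing appendage, the hair follicle (HF) to which it is attached, and the interfollicular epidermis (IFE) that lies between the follicles. No group received a treatment or carried an altered allele. Each group had 3 biological replicates, each a pool of dissected pieces hybridised to one exon array, which made 9 arrays. The sources used here do not say whether a pool came from one animal or several, so p-values measure the spread between pools, and the small number of arrays limits the precision.

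The array name recorded with each sample gave another compartment than its title for 9 of 9 arrays: arrays titled SG carried an HF name, those titled HF an IFE name and those titled IFE an SG name. Groups are used here as titled. The mean log2 signal of 8 sebocyte genes was 10.11 to 10.52 on the SG arrays, 7.95 to 8.51 on the HF arrays and 6.14 to 6.51 on the IFE arrays. For 7 hair follicle genes it was 7.9 to 9.97 on SG, 11.15 to 11.76 on HF and 6.21 to 6.39 on IFE arrays. For 6 genes of interfollicular differentiation it was 9.72 to 9.89 on SG, 10.29 to 10.81 on HF and 11.94 to 12.11 on IFE arrays. Each list was thus highest where the titles place it. SG replicate 3 held the 9.97 for follicle genes, against 7.9 and 7.92 on SG replicates 1 and 2. Under the array names, the arrays called HF below would be called IFE.

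The epidermis of the mouse houses dendritic epidermal T cells, which are gamma delta T cells that sit between keratinocytes and sense their stress or injury. Their T cell receptor signals through the CD3 chains, whose tails are phosphorylated by the kinase Lck. They are kept in place by the integrin that Itgae encodes, which binds E-cadherin on keratinocytes, and they depend on cytokines that keratinocytes supply. Thy1, a glycoprotein tethered to the outer cell membrane, is a classical surface marker of these cells, although fibroblasts, neurons and other cells make it too.

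Thy1 was the member that changed between compartments, being lower in HF than in IFE and higher in SG than in HF. The other 7 measured genes stayed under the threshold, and 6 of them lay in the dimmer 50% of genes by mean signal over all arrays, Cd3e being the exception. A gene was called changed at a Benjamini-Hochberg adjusted p under 0.05 in limma's fit across all 14507 genes together with a log2 difference of at least 1 in size. In SG against IFE 0 of 8 members were called, while 9.49% of all genes were, and 4 of 8 had an unadjusted p under 0.05. In HF against IFE 1 of 8 was called, lower, against 6.31% of all genes (2.96% higher and 3.36% lower). In SG against HF 1 of 8 was called, higher, against 5.11% (1.81% higher and 3.3% lower). As shares of a list of 8, these counts lie near the background. Detection calls were not used here, so none of the 8 genes can be called present or absent in a compartment from these values. The dissections are bulk tissue, in which fewer T cells and less RNA per cell cannot be told apart.

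**Figure D1:**
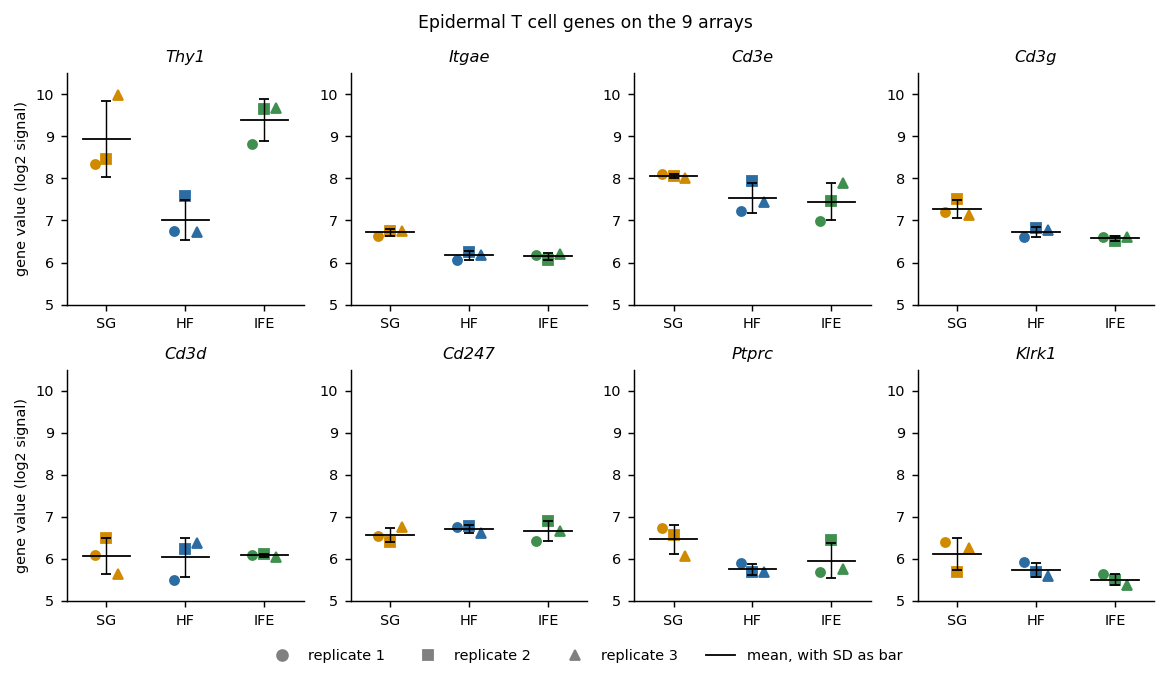
Gene value (log2 signal, median over the probe sets of a gene) of the 8 measured genes on each array, by compartment, with symbols for replicates, a line for the mean and a bar for the SD (n = 3). Thy1 lies at 6.72 to 7.57 on the HF arrays, below every SG and IFE array, while the other 7 genes keep within a range of 5.39 to 8.11.

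Thy1, measured by 7 probe sets, had log2 signals of 6.74, 7.57 and 6.72 in HF, against 8.81, 9.66 and 9.68 in IFE. All 3 HF arrays lay below all 3 IFE arrays. The mean fell to 7.01 ± 0.49 in HF, against 9.39 ± 0.50 in IFE (SD, n = 3 each), a log2 difference of -2.37 ± 0.41 (SE), or 5.19-fold (95% interval -3.27 to -1.48, limma adjusted p = 0.00263). In SG the values were 8.35, 8.47 and 9.98, so SG and HF did not overlap either. SG averaged 8.94 ± 0.91 and exceeded HF by 1.92 ± 0.41, or 3.8-fold (95% interval 1.03 to 2.82, adjusted p = 0.0113). SG and IFE overlapped, and their difference of -0.45 ± 0.41 did not pass (95% interval -1.34 to 0.44, adjusted p = 0.468). The order of the means was IFE, SG, HF, and only the step down to HF exceeded the spread.

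SG replicate 3 carried both the highest Thy1 signal of any array and the highest follicle gene level of the SG arrays. Without it, Thy1 was -0.97 in SG against IFE, at an adjusted p of 0.0438, and 1.40 in SG against HF, at an adjusted p of 0.0132. The SG against HF call ended without HF replicate 1 (adjusted p = 0.0501) or HF replicate 3 (adjusted p = 0.0593), and when arrays sharing the closing letter of their array name were blocked together (adjusted p = 0.0551). Neither the call nor the direction of HF against IFE changed when any one array was left out, with differences of -2.66 to -2.23. With SG replicate 3 and HF replicate 2 both left out, a choice made after seeing the data, the counts of members called were again 0, 1 and 1 for SG against IFE, HF against IFE and SG against HF.

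**Figure D2:**
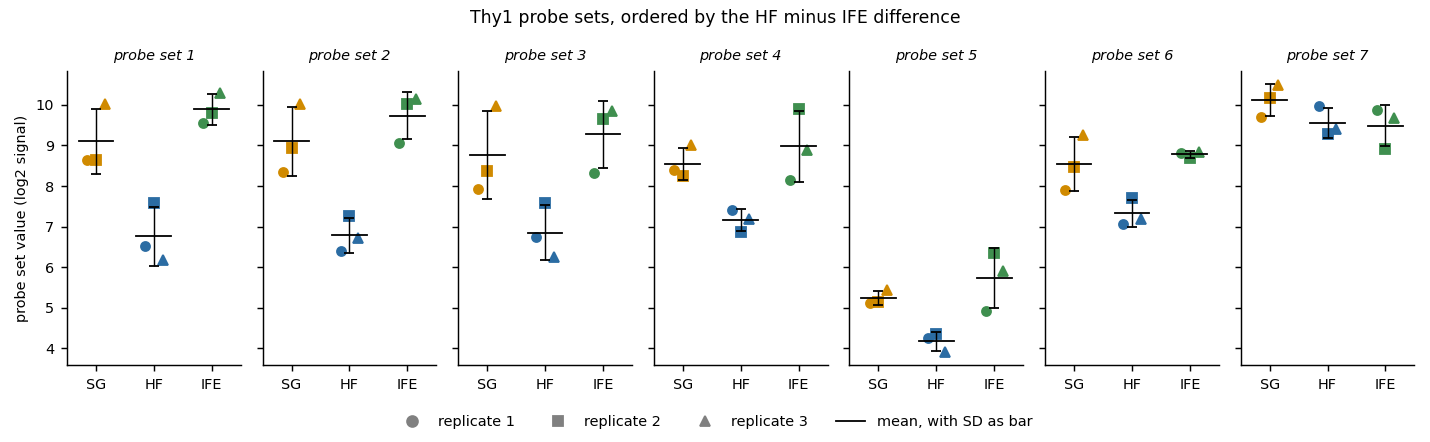
Log2 signal of each of the 7 Thy1 probe sets on the 9 arrays, ordered from the most negative to the least negative HF minus IFE difference, with the mean and SD per compartment (n = 3). In 6 of them the HF arrays lie below the IFE arrays without overlap, and in the last one, the brightest, the compartments overlap.

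The Thy1 probe sets did not all behave alike. In 6 of 7 the HF arrays lay below the IFE arrays without overlap, while 21.0% of all probe sets did so, and the differences of those 6 ran from -3.12 to -1.46. The same 6 were higher in SG than in HF without overlap, a pattern found in 9.91% of all probe sets. The remaining probe set, the brightest of the gene, read 9.97, 9.27 and 9.41 in HF against 9.87, 8.92 and 9.68 in IFE, a difference of 0.06. On SG arrays it read 9.7, 10.18 and 10.48. With this probe set alone as the gene value, Thy1 was called in no comparison (0.06 in HF against IFE, 0.57 in SG against HF and 0.63 in SG against IFE). The cause of its different behaviour was not tested.

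Most markers of another epidermal immune cell moved in the same direction as Thy1 between HF and IFE. Among 12 genes of Langerhans and dendritic cells, the antigen-presenting cells of the epidermis, 0 were called higher and 4 lower in HF than in IFE. They were H2-Aa (-1.25 ± 0.26), H2-Eb1 (-1.17 ± 0.25), Cd207 (-1.02 ± 0.21) and Ctss (-1.12 ± 0.33), while 3.36% of all genes were called lower. By the means, 10 of the 12 were lower in HF and 2 higher, Mfge8 (7.76 against 7.41 in IFE) and Itgax (6.28 against 6.04). Leaving out HF replicate 3 or IFE replicate 2 left 1 of those 4 called, H2-Aa, whose own call ended with the letter block (adjusted p = 0.14). With the brightest probe set H2-Eb1 was 0.0082, Cd207 -0.42 and Ctss -0.75, none of them called, and the mean over probe sets ended the same 3 calls. Mfge8 was called higher in HF than in IFE with the brightest probe set (1.9, adjusted p = 0.00121). The summed linear signal of the 12 was 2429 to 2891 in SG, 1250 to 1405 in HF and 1894 to 2478 in IFE. In SG against HF, 5 of the 12 were higher (H2-Aa, Tyrobp, H2-Eb1, Cd74 and Ctss), against 1.81% of all genes, and 3 without SG replicate 2 or HF replicate 1. In that comparison the calls of Cd74 and Ctss ended with the letter block (adjusted p = 0.101 and 0.19), and those of H2-Eb1, Cd74 and Ctss with the brightest probe set. Fibroblasts are another Thy1-making cell. Of 7 of their genes, 1 was called higher and 0 lower in HF than in IFE, against 2.96% and 3.36% of all genes. That gene was Dcn (1.7), a call that ended without HF replicate 1 (adjusted p = 0.0829), among other arrays. In SG against HF 0 of the 7 were called, against 5.11% of all genes. The summed signal of the 7 was 903 to 1624 in SG, 1240 to 1363 in HF and 826 to 981 in IFE. Dcn entered the SG sums at log2 signals of 7.49, 7.88 and 9.63. The collagen genes Col1a1, Col1a2 and Col3a1 were called in none of the 3 comparisons. The part of these cell types in the Thy1 difference was not tested.

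The invariant chains of the T cell receptor complex, Cd3d, Cd3e, Cd3g and Cd247, carry its signal into the cell, Cd247 encoding the zeta chain. None was called in any comparison. Cd3d, Cd3e and Cd3g are neighbours on chromosome 9 with 0 protein-coding genes between Cd3g and Cd3d or between Cd3d and Cd3e, in the RefSeq table of assembly GRCm38, and yet their signals did not follow one pattern.

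Cd3g, read by 2 probe sets, had log2 signals of 7.19, 7.52 and 7.12 in SG, 6.60, 6.82 and 6.78 in HF, and 6.61, 6.51 and 6.60 in IFE. Every SG array lay above every HF and IFE array. It was 0.70 ± 0.17 higher in SG than in IFE, or 1.63-fold, with an adjusted p of 0.0106 but a size under the threshold (95% interval 0.34 to 1.07). The SG against HF difference was 0.54 ± 0.17 (adjusted p = 0.0652), and the HF against IFE difference 0.16 ± 0.17 (adjusted p = 0.598). With the letter block the adjusted p of SG against IFE was 0.0834. Both probe sets of Cd3g separated SG from IFE and SG from HF without overlap.

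Cd3e, read by 3 probe sets, gave 8.11, 8.05 and 8.01 in SG, 7.23, 7.93 and 7.44 in HF, and 6.99, 7.47 and 7.88 in IFE. The SG arrays again lay above all others, by a narrow margin over HF replicate 2 and IFE replicate 3. The SG replicate 3 value came from another probe set than the rest, and the probe set behind the rest read 7.31 there. Of the 3 probe sets, 1 was higher in SG than in IFE without overlap, and 1 higher than in HF. Of all probe sets, 10.3% and 9.91% were. The difference from IFE was 0.61 ± 0.24 (95% interval 0.08 to 1.14, adjusted p = 0.0919) and from HF 0.52 ± 0.24 (adjusted p = 0.22), so neither passed. HF against IFE stood at 0.09 ± 0.24.

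Cd3d, with 3 probe sets, gave 6.10, 6.49 and 5.64 in SG, 5.50, 6.24 and 6.37 in HF, and 6.10, 6.12 and 6.04 in IFE. The groups overlapped in all 3 comparisons. Its means of 6.08 in SG, 6.04 in HF and 6.09 in IFE differed by less than their spread, and the 95% interval of SG against IFE ran from -0.57 to 0.55. Cd247 was as even. It read 6.54, 6.41 and 6.75 in SG, 6.76, 6.79 and 6.61 in HF, and 6.43, 6.91 and 6.66 in IFE, over 18 probe sets. The 95% intervals of its differences lay between -0.54 and 0.45. Among its 18 probe sets, 6 were higher and 12 lower in SG than in IFE by the group means, and the brightest one alone fell by 1.09 on the log2 scale in SG (adjusted p = 0.00903).

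**Figure D3:**
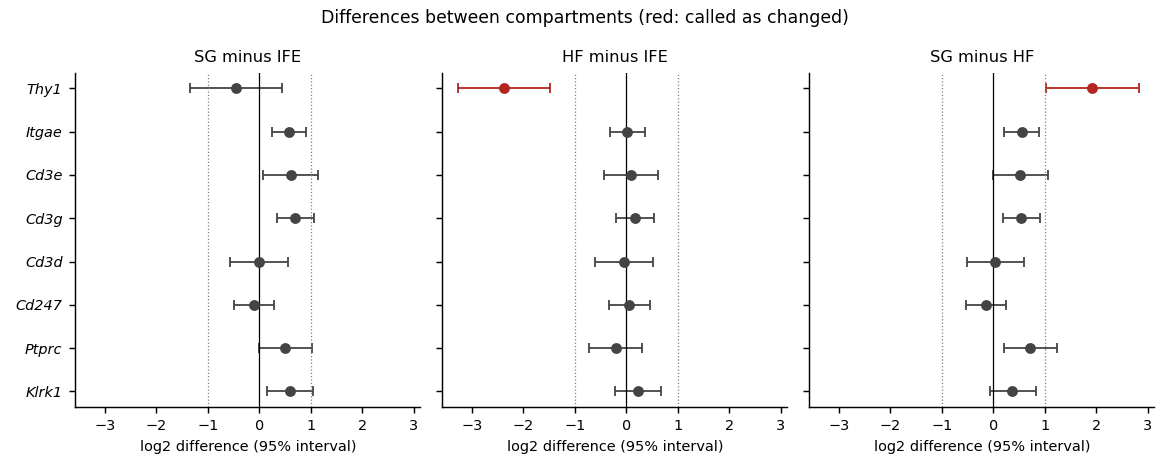
Log2 difference with its 95% interval (limma, n = 3 per group) for the 8 genes in SG minus IFE, HF minus IFE and SG minus HF, where dotted lines mark a difference of 1 in size and red marks a call. Thy1 is red in HF minus IFE (-2.37) and SG minus HF (1.92), and the intervals of Itgae and Cd3g lie above 0 in both panels that involve SG.

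Ptprc encodes CD45, the phosphatase on the surface of all nucleated blood cells that sets the activity of Lck. Its 24 probe sets gave 6.73, 6.58 and 6.08 in SG, 5.90, 5.68 and 5.68 in HF, and 5.68, 6.45 and 5.75 in IFE. SG lay above HF on every array, and overlapped IFE through IFE replicate 2. Neither the 0.71 ± 0.24 of SG against HF (95% interval 0.20 to 1.23, adjusted p = 0.0871) nor the 0.50 ± 0.24 of SG against IFE (adjusted p = 0.153) passed. HF and IFE differed by -0.21 ± 0.24. Of the 24 probe sets, 19 were higher in SG than in HF by the means, 6 of them without overlap, and 1 was lower without overlap. Of all probe sets, 9.91% were higher and 17.9% lower without overlap.

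Itgae, the alpha E integrin that holds T cells to keratinocytes, had log2 signals of 6.62, 6.76 and 6.76 in SG, 6.05, 6.26 and 6.19 in HF, and 6.18, 6.05 and 6.20 in IFE. The SG arrays stood apart from the other 6, and HF and IFE overlapped. Itgae was 0.57 ± 0.15 higher in SG than in IFE, or 1.49-fold (95% interval 0.24 to 0.91, adjusted p = 0.0203), and 0.55 ± 0.15 higher than in HF, or 1.46-fold (adjusted p = 0.044). Both adjusted p-values passed and both sizes missed the threshold. The adjusted p for SG against HF no longer passed on dropping any 1 SG or HF array (0.0683 to 0.165), or IFE replicate 2 (0.0592) or 3 (0.065). Nor did it with the replicate block (0.0528), the letter block (0.294), the brightest probe set (0.324) or the mean over probe sets (0.0529). A changed eBayes (0.053), a fit of the compared groups alone (0.0624) and leaving out SG replicate 3 and HF replicate 2 (0.114) had the same outcome. The adjusted p for SG against IFE no longer passed without SG replicate 2 (0.0614) or IFE replicate 2 (0.0793), or with the letter block (0.118). Nor did it with the brightest probe set (0.0575), a fit of the compared groups alone (0.055), or without SG replicate 3 and HF replicate 2 (0.055). The HF against IFE difference was 0.02 ± 0.15 (95% interval -0.31 to 0.36). Over the 25 probe sets of the gene, 21 had a higher mean in SG than in IFE, and 10 separated without overlap upward and 1 downward, where 10.3% and 25.2% of all probe sets did. Against HF, 10 probe sets were higher in SG without overlap and 0 lower, where 9.91% and 17.9% of all probe sets were. The size ran from -0.88 to 2.17 between probe sets in SG against IFE, so the gene's median of 0.44 over probe sets stands for unequal readings.

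The ligand of that integrin ran the other way. Cdh1, the E-cadherin gene, had 9.88, 9.95 and 9.85 in SG, 10.87, 10.83 and 10.73 in HF, and 11.15, 11.45 and 11.37 in IFE. No groups overlapped, and it fell by 1.43 on the log2 scale in SG against IFE (SE 0.16, adjusted p = 0.000102). The -0.92 ± 0.16 of SG against HF had an adjusted p of 0.00355 and a size under the threshold.

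Klrk1 encodes NKG2D, an activating receptor for ligands that stressed keratinocytes display. Its 5 probe sets gave 6.39, 5.68 and 6.26 in SG, 5.92, 5.69 and 5.60 in HF, and 5.64, 5.50 and 5.39 in IFE. SG lay above IFE on every array and overlapped HF through SG replicate 2. Of the 5 probe sets, 1 was higher in SG than in IFE without overlap, and 2 higher than in HF. Of all probe sets, 10.3% and 9.91% were. The difference of SG from IFE was 0.60 ± 0.20 (95% interval 0.15 to 1.05, adjusted p = 0.0556), and that from HF 0.37 ± 0.20 (adjusted p = 0.308). HF against IFE stood at 0.23 ± 0.20 (adjusted p = 0.533). Raet1e, the one gene measured here among the listed genes for its ligands, was called in none of the 3 comparisons.

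Taking the 8 genes side by side, 4 had SG arrays wholly above IFE arrays (Cd3e, Cd3g, Itgae and Klrk1), while 13.2% of all genes had, and 0 lay wholly below. In SG against HF, 5 lay wholly above (Cd3e, Cd3g, Ptprc, Thy1 and Itgae), against 12.1% of all genes. In HF against IFE 0 lay wholly above, against 13.5% of all genes, and 1, Thy1, wholly below, against 19.3%. The shares of all genes wholly below were 21.7% in SG against IFE and 17.2% in SG against HF. The median difference of the 8 was 0.54 in SG against IFE, 0.04 in HF against IFE and 0.53 in SG against HF, beside -0.06, -0.07 and -0.02 over all genes. SG arrays enter both sets of figures that involve SG, so these are not separate findings. The members were picked as T cell genes with results of these data known, and no test was made over the list.

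By adjusted p alone, with no minimum size, 2 of 8 members were higher in SG than in IFE (Cd3g and Itgae), against 6.07% of all genes, and 2 of 8 in SG against HF (Thy1 and Itgae), against 3.26%. In HF against IFE 0 of 8 were higher by that rule, against 4.81%. These counts depended on how arrays were scaled, since the array medians differ. With each array centred on its median, the median difference of all genes in SG against IFE was 0.18, and 5 of 8 members passed by adjusted p alone, against 15.6% of all genes. They were Cd3e (0.85), Cd3g (0.95), Ptprc (0.75), Itgae (0.81) and Klrk1 (0.84), none of which reached a difference of 1.

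**Figure D4:**
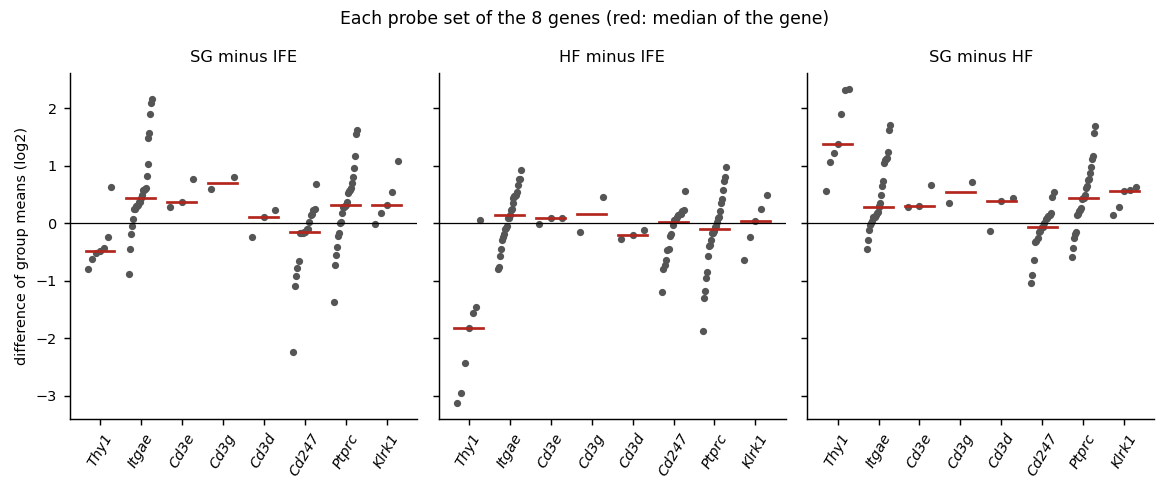
Difference of group means (log2) of each of the 87 probe sets of the 8 genes in SG minus IFE, HF minus IFE and SG minus HF, with a red line at the median of each gene. Of the 87 probe sets, 56 are above 0 in SG minus IFE, 41 in HF minus IFE and 67 in SG minus HF.

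Over all 87 probe sets, 17 were higher and 5 lower in SG than in IFE without overlap (19.5% and 5.75%), where 10.3% and 25.2% of all probe sets were. In SG against HF the counts were 28 higher and 4 lower (32.2% and 4.6%), beside 9.91% and 17.9% of all. With Thy1 set aside, 22 of the remaining 80 probe sets were higher in SG than in HF and 4 lower. In HF against IFE the same 80 split into 9 higher and 9 lower, beside 11.7% and 21.0% of all. Probe sets of one gene read the same RNA and are not replicates of a compartment.

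T cell receptor signalling was followed through 17 measured genes of 20 listed. In SG against IFE 1 was higher and 0 lower, against 2.54% and 6.96% of all genes. In HF against IFE 1 was higher and 0 lower, against 2.96% and 3.36%, and in SG against HF 0 were higher and 2 lower, against 1.81% and 3.3%. The kinase Zap70, which docks on phosphorylated CD3 tails, had means of 7.06 ± 0.19 in SG, 6.96 ± 0.09 in HF and 6.82 ± 0.15 in IFE (SD, n = 3), and the adaptor Lat 7.64 ± 0.05, 7.77 ± 0.40 and 7.55 ± 0.31. Neither was called. The gene higher in SG against IFE was Themis, a T cell development gene, with 6.51, 5.47 and 5.78 in SG against 4.65, 4.29 and 5.10 in IFE (1.24 ± 0.30, adjusted p = 0.0126). Its call ended without SG replicate 1 (0.95) or IFE replicate 2 (adjusted p = 0.0646), and with the brightest probe set its difference was -0.35.

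Other kinases of this pathway differed between SG and HF. Fyn, a kinase of the same family as Lck that is widely expressed, had 10.38, 9.99 and 10.47 in HF against 7.91, 8.62 and 8.44 in IFE (1.96 ± 0.42, adjusted p = 0.00912). It read 6.83, 6.80 and 8.68 in SG and was lower there than in HF (-2.85 ± 0.42, adjusted p = 0.00159). SG replicate 3, the SG array with the most follicle gene signal, was the highest of the SG arrays here too. In SG against IFE Fyn was -0.89 ± 0.42 and not called (adjusted p = 0.152). Without SG replicate 3 it was called lower in SG (-1.51, adjusted p = 0.0011), as it was with array weights (-1.24). Prkcq, a protein kinase C gene, was lower in SG than in HF by the same test (-1.16 ± 0.20, adjusted p = 0.00347), a call that ended with the brightest probe set (-0.47) and with the mean over probe sets (-0.96). Against IFE, Prkcq was -0.64 in SG (adjusted p = 0.035) and 0.51 in HF (adjusted p = 0.116), both under the size threshold.

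Genes of gamma delta and epidermal T cells were measured for 19 of 26 listed, and the receptor segments themselves were not analysed here. In SG against IFE 1 was higher and 1 lower, against 2.54% and 6.96% of all genes. In HF against IFE the counts were 0 and 1, against 2.96% and 3.36%, and in SG against HF 1 and 0, against 1.81% and 3.3%. Gzma, a granule protease of cytotoxic cells, gave 6.48, 5.53 and 5.54 in SG against 4.87, 4.41 and 4.82 in IFE, so that SG was 1.15 ± 0.28 higher (adjusted p = 0.0134). This call ended without SG replicate 1 (0.83) or IFE replicate 2 (adjusted p = 0.0659), and with the mean over probe sets (0.35). Gzmb, a related protease, was 1.18 ± 0.31 higher in SG than in HF (adjusted p = 0.0353), a call that ended when any 1 of 5 arrays was dropped (SG replicates 1 and 3, HF replicates 1 and 3, IFE replicate 2), with adjusted p-values reaching 0.128. The skin homing receptor gene Ccr10 averaged 7.67 ± 0.27 in SG, 7.46 ± 0.11 in HF and 7.35 ± 0.22 in IFE, and Cd7, a T cell surface gene, 7.40 ± 0.32, 7.73 ± 0.09 and 7.48 ± 0.17. Neither was called in any comparison. Rora, a nuclear receptor gene used by keratinocytes and lymphocytes alike, read 9.10, 9.13 and 9.18 in SG, 8.82, 8.81 and 8.54 in HF, and 10.51, 10.93 and 10.42 in IFE. It was lower in SG (-1.49 ± 0.18, adjusted p = 0.000187) and in HF (-1.90 ± 0.18, adjusted p = 5.14e-05) than in IFE. With the brightest probe set the SG against IFE difference was -0.80 and was not called.

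Cytokines that sustain T cells were followed along with their receptors. Of 11 genes measured, 1 rose and 1 fell in SG against IFE, where 2.54% and 6.96% of all genes did. For HF against IFE the counts were 0 and 3, beside 2.96% and 3.36% of all genes, and for SG against HF 2 and 1, beside 1.81% and 3.3%. Il7, a T cell survival cytokine, had 7.14, 6.77 and 6.61 in SG against 5.61, 5.64 and 5.50 in HF and 5.63, 5.59 and 5.67 in IFE. All SG arrays were above all others, and Il7 rose by 1.21 ± 0.17 over IFE (adjusted p = 0.000569) and by 1.26 ± 0.17 over HF (adjusted p = 0.00117). With the brightest probe set the difference from HF was 0.69 and was not called (adjusted p = 0.112).

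Tslp, an epithelial cytokine that acts on a receptor sharing a chain with that of Il7, read 6.13, 6.12 and 6.26 in SG, 4.26, 5.33 and 4.67 in HF, and 6.56, 7.22 and 7.58 in IFE. The compartments did not overlap. It was lower in HF than in IFE (-2.37 ± 0.29, adjusted p = 0.000252) and higher in SG than in HF (1.42 ± 0.29, adjusted p = 0.00934), the same order of means as Thy1. The SG against HF call of Tslp ended under the same letter block (adjusted p = 0.0941).

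Il15, the cytokine that the Il2rb chain receives on epidermal T cells, read 6.14, 5.43 and 5.33 in SG, 5.25, 5.39 and 5.80 in HF, and 5.92, 6.22 and 6.31 in IFE, and was called in no comparison. Il15ra, which presents that cytokine, averaged 7.52 ± 0.08 in SG, 7.23 ± 0.22 in HF and 8.24 ± 0.12 in IFE. It was lower in HF than in IFE (-1.01 ± 0.17, adjusted p = 0.0022), at the edge of the size threshold, and its call ended without any 1 of 4 arrays (HF replicates 1 and 3 and IFE replicates 1 and 2), and with quantile normalization (-0.89) or median centring (-0.90). Jak1, a kinase shared by these receptors and by many others, was lower in SG (-1.86 ± 0.21, adjusted p = 0.000115) and in HF (-1.73 ± 0.21, adjusted p = 0.000218) than in IFE. Il4ra was lower in SG than in HF (-1.15 ± 0.21, adjusted p = 0.00503), a call that ended without SG replicate 2 (-0.96).

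**Figure D5:**
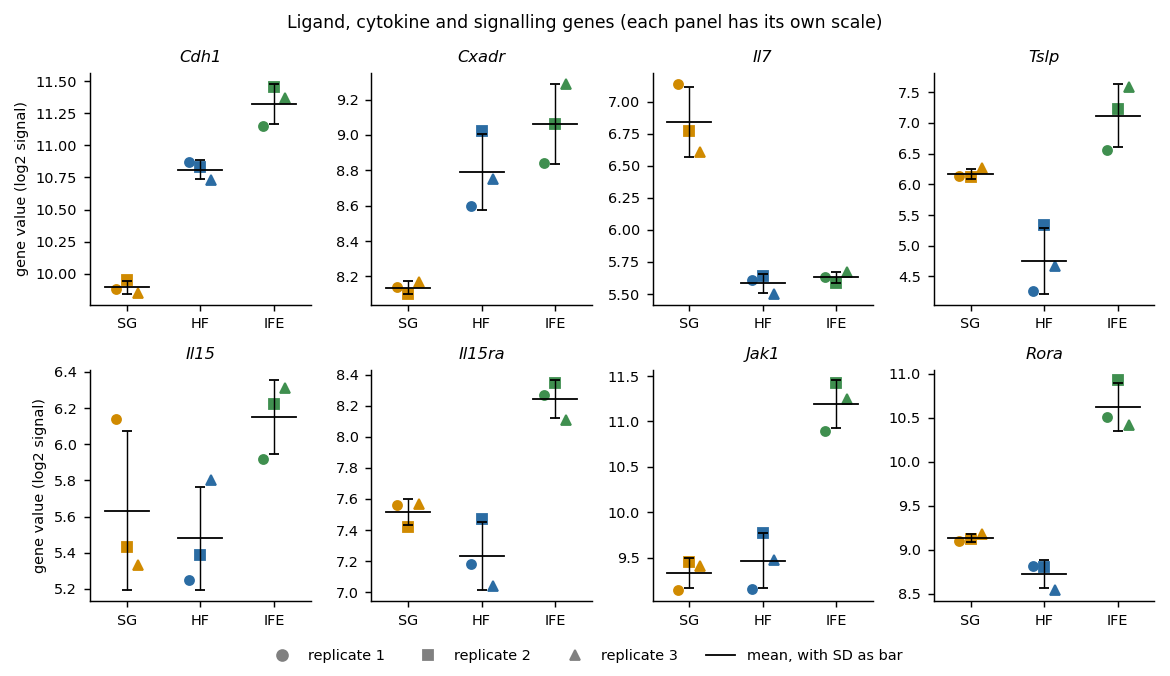
Gene value (log2 signal) of 8 ligand, cytokine and signalling genes on each array by compartment, each panel on its own scale, with the mean and SD (n = 3). Il7 is highest on the SG arrays at 6.61 to 7.14, Cdh1 is lowest there at 9.85 to 9.95, and Tslp is lowest on the HF arrays at 4.26 to 5.33.

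Of 9 measured genes listed as keratinocyte ligands of epidermal T cells, 1 was higher and 2 were lower in SG than in IFE, against 2.54% and 6.96% of all genes. In HF against IFE 0 differed, against 6.31%, and in SG against HF 1 was higher and 1 lower, against 1.81% and 3.3%. The list also holds Sema4d, the gene of a semaphorin that T cells carry. Without IFE replicate 1 the first pair was 1 higher and 4 lower, Cxadr (-1.04) and Sema4d (-1.03) being added. Beside Il7 and Cdh1, the call was Plxnb2, a receptor for a semaphorin of T cells (-1.03 ± 0.19 in SG against IFE, adjusted p = 0.00291), which missed the size threshold without SG replicate 1 (-0.92), IFE replicate 2 or IFE replicate 3 (-0.92), and with quantile normalization (-0.69) or median centring (-0.79). Cxadr, the partner of the costimulatory receptor that Jaml encodes, read 8.14, 8.10 and 8.17 in SG, 8.60, 9.02 and 8.75 in HF, and 8.84, 9.06 and 9.29 in IFE. It was -0.93 ± 0.18 in SG against IFE (adjusted p = 0.00333), just short of the size threshold. Jaml itself averaged 6.78 ± 0.10 in SG, 6.60 ± 0.22 in HF and 7.02 ± 0.30 in IFE, and was not called.

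Other leukocyte lineages gave few calls. The shares of all genes called were 9.49% in SG against IFE, 6.31% in HF against IFE and 5.11% in SG against HF. Of 19 pan-leukocyte genes, 0 were called in SG against IFE (3 at an unadjusted p under 0.05), 0 in HF against IFE (5 unadjusted) and 1 in SG against HF, higher. That one was Arhgdib, at 1.34 ± 0.33 (adjusted p = 0.0253), a call lost on dropping any 1 of SG replicates 1 and 3 and HF replicates 1 and 3, where the adjusted p reached 0.109. Other settings added calls. Arhgdib was called lower in HF than in IFE (-1.07) with the replicate block (adjusted p = 0.0329), among other settings. With the brightest probe set Vav1 was called in SG against IFE (3.11), HF against IFE (1.67) and SG against HF (1.44), and Laptm5 in SG against HF (1.19). Ikzf1 was called in SG against IFE with the letter block (1.16) and without SG replicate 1 (1.00). Alpha beta T cell genes (7 measured), NK cell genes (4), B cell genes (5), mast cell genes (3) and endothelial genes (5) had 0 calls in each of the 3 comparisons by limma. At an unadjusted p under 0.05, their counts for SG against IFE were 2, 0, 0, 1 and 1 in that order of lists. For HF against IFE they were 2, 0, 1, 0 and 0, and for SG against HF 1, 1, 0, 2 and 0. In these lists the NK cell gene Klrb1c was called higher in SG than in HF with median centring (1.12), among other settings. The mast cell gene Ms4a2 was called higher in SG than in IFE with the brightest probe set (1.25). Of 7 macrophage genes, Cd68 was lower in SG than in both other compartments (-1.74 ± 0.26 against IFE and -1.25 ± 0.26 against HF), and the call against HF ended without HF replicate 3 (adjusted p = 0.0549), while that against IFE ended with the brightest probe set (-0.91). Of 7 fibroblast genes, Dcn was higher in HF than in IFE (1.70 ± 0.45), a call that ended without any 1 of 5 arrays (adjusted p up to 0.1). Of 4 melanocyte genes, Pmel was higher in SG than in IFE (1.30 ± 0.37), a call that ended without SG replicate 2 or 3 or IFE replicate 1 or 2. Among the genes named in these lists, the letter block also ended the calls of Themis, Gzma, Plxnb2, Gzmb, Arhgdib, Il4ra, Il15ra and, against HF, Cd68 (adjusted p from 0.0519 for Themis to 0.312 for Gzmb).

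Over the 9 arrays, the average of the 8 members, each centred on its own mean, correlated most with Itgae (r = 0.80), Cd3e (0.764), Thy1 (0.732) and Ptprc (0.715), and least with Cd3d (0.123) and Cd247 (-0.108). Each member is itself part of that average, so these correlations are partly built in. Thy1 varied most and so weighed most on the average, with an SD over the arrays of 1.23, against 0.17 to 0.424 for the others. It was nearly unrelated to Cd3g (r = 0.048) and Klrk1 (r = -0.015). The non-member genes most like the average were Nampt (r = 0.976), Bet1 (0.972), Anxa5 (0.96), Mfsd2a (0.959), Dhrs7 (0.958), Idh3g (0.957), Tyms (0.956), Apoc1 (0.955), Tmem109 (0.954), Hmgcs1 (0.952), Acbd6 (0.947) and Acadm (0.946). All 12 had their highest mean in SG and their lowest in HF. These correlations are descriptions over 9 arrays that share their compartments and array scaling, picked as the highest among all genes that varied enough. No gene of the other T cell lists was among the 12. The required SD of at least 0.5 shuts out steady genes whatever their pattern, so this absence says little about T cell genes. Every member other than Thy1 would have missed that limit too.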

How the data were processed

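Affymetrix exon arrays were read for 9 samples. The authors deposited intensity values for 154736 probe sets, linear and spanning 2.5 to 30815. RMA, Affymetrix Power Tools and the build mm9 are named in the submitters' processing notes, with no version, role or order. The filter behind the deposited probe sets is not given in the sources used here. Array medians ran from 176 to 234, so a comparison can carry an offset that touches all genes.

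Each deposited intensity was converted to log2 and otherwise left as the authors scaled it. Symbols came from the platform annotation, where 146964 probe sets had 1 symbol, 1060 several and 6712 none. Old symbols were updated for 1754 genes through the RefSeq table of assembly GRCm38, which held 14472 of the 14507 genes. A gene's value was the median over its probe sets.

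The linear model (limma 3.58.1, R 4.3.3) held a mean for each titled compartment and used all 9 arrays, with eBayes and Benjamini-Hochberg adjustment over 14507 genes, in 3 comparisons. Calls combined adjusted p (below 0.05) with size (log2 difference 1 or more either way). The fit was tested on 9 simulated arrays of 14507 genes with genes shifted in SG, read in SG against IFE. It recovered 88 of 100 genes shifted by 1.5 and 99 of 100 shifted by 3 on the log2 scale, with 3 false calls. The simulated noise was normal and independent between genes and arrays, without array offsets. The false calls are thus no error rate for these data. Replicate numbers did not pair the arrays (correlation of deviations -0.019 to 0.225).

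The members, the lists of other genes, the thresholds and the naming rule were chosen with earlier results of these data known. All members were named, together with up to 4 genes of each other list by smallest p, any called gene of a list with 5 or fewer calls, and 12 non-members with the highest correlation and an SD of at least 0.5. Genes such as Zap70, Lat, Ccr10, Cd7, Jaml and Raet1e were named for their role, after their values were seen. Alternatives are given at the end.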

Additional observations from a re-analysis of the deposited data

How the results depend on the processing

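All 3 comparisons were repeated with 22 alternatives, 1 of them (without SG replicate 3 and HF replicate 2) chosen after the data were seen. Of 510 recomputed member differences, 466 kept direction and side of the threshold. Many of these could not change direction, so the count is no measure of stability. Other thresholds, a changed eBayes, a fit of the compared groups alone and the replicate block left the difference itself as it was. So did leaving out the dimmer genes or an array of the compartment not compared, and most members began under the threshold. By adjusted p alone the calls were 3171, 1750 and 1373 genes and 2, 1 and 2 members for SG against IFE, HF against IFE and SG against HF. At a log2 threshold of 1.5 they were 483, 420 and 302 genes and 0, 1 and 1 members. Leaving out the dimmer genes gave 597 genes in HF against IFE instead of 916, since fewer genes were tested. The letter block is a block on the closing letter of the array names. SG replicate 1, HF replicate 1 and IFE replicate 3 share their letter with no other array, so it in effect left them out. The block gave 392 genes in SG against HF instead of 741, and 0 members. It also gave Thy1 2.08 (adjusted p = 0.0551). Using the brightest probe set gave 1 member in SG against IFE (Cd247, lower), 0 in HF against IFE and 0 in SG against HF. The replicate block gave 1398, 944 and 781 genes and 0, 1 and 1 members, and changed no call of a member. Leaving out one array gave 1146 to 1752 genes in SG against IFE, 763 to 1146 in HF against IFE and 535 to 994 in SG against HF, with 0 to 0, 1 to 1 and 0 to 1 members.

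Quantile normalization turned the share of higher calls to 56.4% in SG against IFE (26.7% as deposited), 58.3% in HF against IFE (46.8%) and 50.4% in SG against HF (35.4%). Median centring gave 53.1%, 56.9% and 50.5%. The median difference of all genes in SG against IFE was 0.16 and 0.18 under these scalings, and 0.13 and 0.12 in SG against HF.

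Signs turned only for differences near 0, apart from Thy1 with its brightest probe set (0.63 in SG against IFE and 0.061 in HF against IFE). In SG against IFE, Cd3d was 0.13 with quantile normalization, 0.23 with median centring, 0.24 with the brightest probe set, 0.044 with the mean over probe sets, 0.14 with array weights and 0.21 without SG replicate 3 and HF replicate 2 (leave-one-out -0.22 to 0.21). Cd247 was 0.066 with quantile normalization and 0.14 with median centring (leave-one-out -0.22 to 0.027). In HF against IFE, Cd3d was 0.053 with median centring, 0.0085 with array weights and 0.19 with the letter block (leave-one-out -0.22 to 0.21). Cd3e was -0.014 with the brightest probe set, -0.15 with array weights and -0.11 without SG replicate 3 and HF replicate 2 (leave-one-out -0.14 to 0.31). Cd247 was -0.46 with the brightest probe set, -0.16 with the mean over probe sets and -0.033 with array weights (leave-one-out -0.061 to 0.18). Ptprc was 0.12 with the brightest probe set (leave-one-out -0.35 to 0.036). Itgae was -0.025 without SG replicate 3 and HF replicate 2 (leave-one-out -0.025 to 0.081). Klrk1 was -0.23 with the brightest probe set and -0.017 with the mean over probe sets. In SG against HF, Cd3d was -0.24 with the letter block (leave-one-out -0.22 to 0.26). It kept its sign, at 0.36, without SG replicate 3 and HF replicate 2. The causes were not tested. With no detection calls, the signal over background of the dim members is unknown, and their differences may be compressed.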

Other observations

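After the values of Thy1 were seen, the genes with the most similar pattern to Thy1 alone were listed over the 9 arrays. They were Fth1 (r = 0.977), the ferritin heavy chain, Use1 (0.965), Ly6a (0.963), a surface antigen of keratinocyte progenitors and lymphocytes, Fam162a (0.963), Tgfbi (0.961), a secreted matrix protein, Il1r2 (0.959), a decoy receptor of interleukin 1, Morc4 (0.95) and Gpx1 (0.949), a glutathione peroxidase. Ly6a averaged 8.51 in SG, 6.76 in HF and 9.18 in IFE, and Il1r2 averaged 7.74, 5.85 and 8.69, the same order as Thy1. These correlations describe 9 arrays and were picked as the highest.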
